A study of Homo sapiens with 18 samples.

Results

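The response of SNU449-labelled cells to knockdown of ATAD2 was measured on 6 of the 18 arrays of the series, chosen by title: 3 arrays titled SNU449 with ATAD2 siRNA and 3 titled SNU449 with control siRNA. The series asks whether ATAD2 may serve as a target in hepatocellular carcinoma, and its other 12 arrays hold the same pair of groups in Hep3B and PLC (PLC/PRF/5). All 3 are established cell lines from human liver cancer. The cells were grown in RPMI medium and transfected with siRNA and Lipofectamine RNAiMax, so that control cells also went through transfection. The treatment label calls the ATAD2 siRNA arrays knockouts, whereas the design and protocol describe siRNA, which lowers a transcript without deleting its gene. The labels call the 3 arrays of a group biological replicates, and p-values measure the spread between such arrays. The labels used here give neither the siRNA sequences nor the time after transfection.

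ATAD2 is a chromatin-bound ATPase with a bromodomain that recognises acetylated histones, in particular those on newly replicated DNA. Its gene is induced in S phase and is amplified or overexpressed in many carcinomas, including those of the liver. It has been described as a cofactor of E2F, MYC and nuclear receptors, and genes of DNA replication and of the cell cycle are its best known targets.

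Values were log2 signals of Affymetrix probe sets, quantile normalized here over the 18 arrays, with 1 probe set for each of 19775 genes. Across probe sets, Pearson's r between SNU449 control arrays was 0.997 to 0.998 and between knockdown arrays 0.998, and no pair of the 18 arrays held identical values. The 5′ minus 3′ signal of the actin and GAPDH control probe sets, a measure of RNA integrity, averaged -0.373, -0.300 and -0.312 on the SNU449 control arrays. It averaged -0.311, -0.307 and -0.409 on the knockdown arrays, so that the groups overlapped.

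The levels of defining markers on the arrays labelled SNU449 go against the usual description of that line, which is of a poorly differentiated, mesenchymal cell. All 10 measured hepatocyte markers, among them ALB, AFP and TTR, stood at 8 or above, and their median was 12.28 to 12.30 on control arrays and 12.25 to 12.28 after knockdown. Of 8 epithelial markers 7 stood at 8 or above and 1 under 5. The median of the 8 was 10.5 to 10.7 on control and 10.5 to 10.6 on knockdown arrays. Of 12 mesenchymal markers 7 stood under 5, while 3 stood at 8 or above. The median of the 12 was 4.19 to 4.30 on control and 4.12 to 4.31 on knockdown arrays. RB1, whose loss is a known feature of Hep3B, read 4.63, 4.42 and 4.27 on control arrays and 4.46, 4.75 and 4.55 after knockdown, against a mean of 9.47 on the arrays labelled Hep3B and 8.57 on those labelled PLC. Medians of leukocyte, endothelial, stellate and biliary markers ranged from 5.18 to 5.30, from 4.52 to 4.72, from 4.87 to 5.22 and from 6.09 to 6.45. The 7 biliary markers stood at a median of 6.31 to 6.45 on control and 6.09 to 6.12 on knockdown arrays, so that these groups did not overlap, and their part in other results was not tested. The hepatocyte medians did not overlap either. The groups keep their labels here, and each statement on SNU449 or Hep3B is on arrays so labelled.

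The targeted gene, ATAD2, had signals of 9.32, 9.18 and 9.14 with control siRNA, against 6.62, 6.90 and 6.96 with ATAD2 siRNA. It fell by 2.39 on the log2 scale, or 5.23-fold (SE 0.16; limma, adjusted p = 6.15e-07), and no knockdown array came near a control array. Its 4 probe sets gave changes of -2.39, -2.23, -2.23 and -2.48, and each passed the test. No other gene moved by as much as 1 log2 unit.

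Beside ATAD2, the response of SNU449 was small in number and in size. In all, 51 of 19775 genes passed an adjusted p of 0.05, or 0.258% of those tested, 29 of them higher after knockdown (0.147%) and 22 lower (0.111%). CFDP1, CROT, PCSK5 and FABP1 rose most, and S100A8, TUBA1A and MRPS33 fell most after ATAD2. At an unadjusted p under 0.05 there were 2042 genes, or 10.3%, and in 22% of genes the 3 knockdown values lay wholly above or below the 3 control values (8.76% higher, 13.2% lower). The median change over all genes was -0.02, with 56.8% of genes below 0. Another scaling called partly other genes. With the deposited values 51 genes passed, 36 higher and 15 lower, of which 33 were among the 51 called here, and the median change of all genes was 0.00. With arrays centred on their medians 87 passed, 74 higher and 13 lower, of which 35 were among the 51, and the median of all genes was 0.04.

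The number of genes called depended on single arrays, whereas the fall of ATAD2 did not. Without SNU449 control array 2 or 3 the test called 11 and 22 genes, and without knockdown array 2 or 3 it called 10 and 13. Leaving out an array of another line, through the shared estimate of spread, gave 82 genes without Hep3B knockdown array 2 and 86 without PLC knockdown array 2. The 29 genes that rose lay at a median of 0.37, 0.39 and 0.42 above the control mean on the 3 knockdown arrays, and the 21 that fell beside ATAD2 at -0.39, -0.44 and -0.43. These medians describe genes chosen by the same contrast, and the 3 knockdown arrays lay close together. Beside ATAD2, 7 called genes (CFDP1, CPS1, FABP1, ITPRIPL2, MRPS33, TM4SF1 and TUBA1A) passed without each of the 18 arrays in turn, and every other called gene missed the threshold without at least 1 array. DTX4 missed it without any one of 16 arrays, TIMP1 of 15, and GPRC5B and SMIM15 of 14. For C19orf12, DESI2 and GLUD1 it was any one of 13 arrays.

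**Figure D1:**
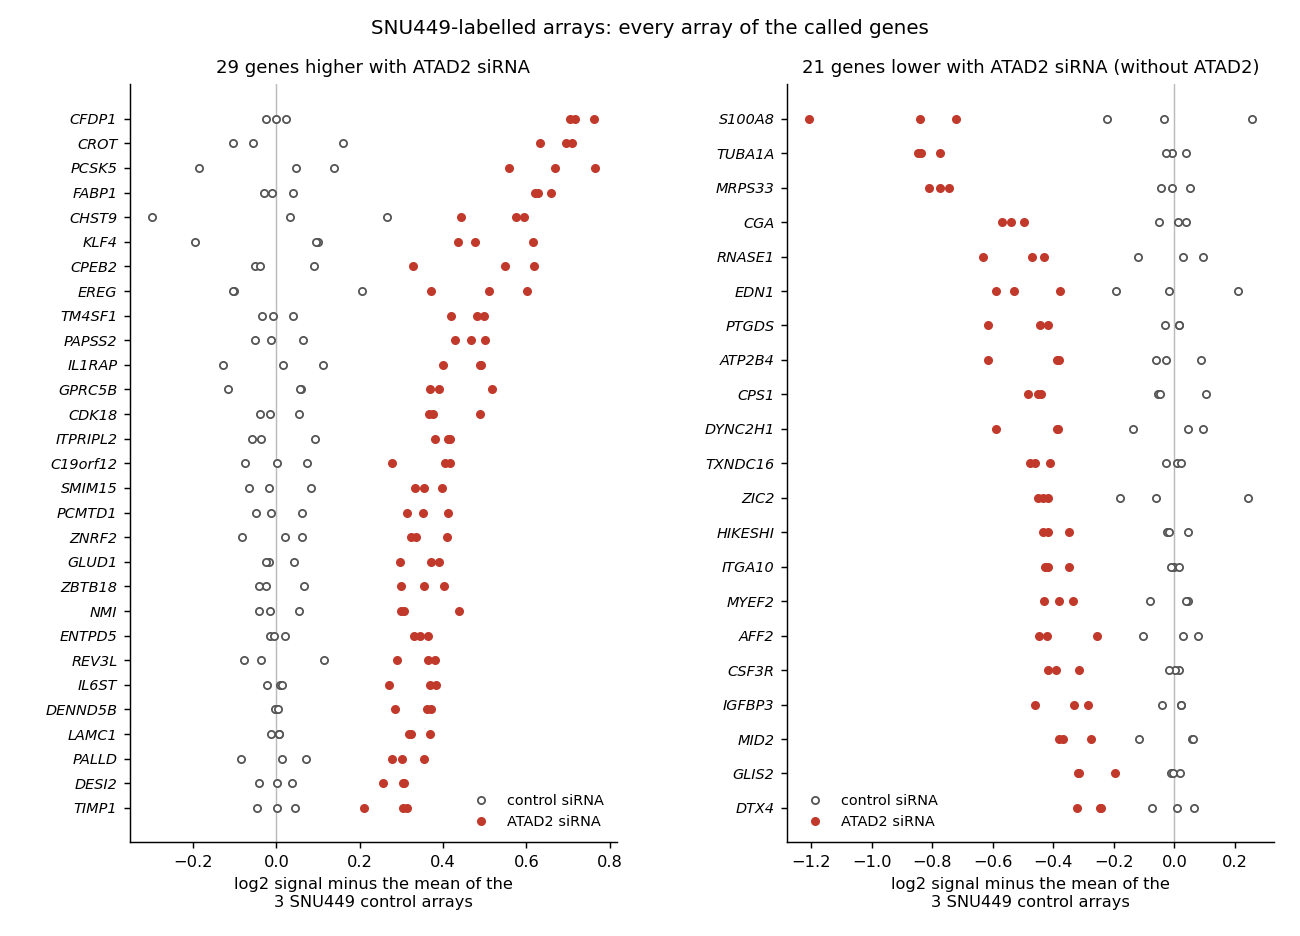
Log2 signal of each called gene on each of the 6 SNU449 arrays, minus the mean of the 3 control arrays (horizontal axes); open points are control and filled points ATAD2 siRNA arrays, with the 29 genes that rose on the left and the 21 that fell beside ATAD2 on the right. S100A8, at a change of -0.92, has widely spread points in both groups, whereas those of CFDP1 (0.73), TUBA1A (-0.82) and MRPS33 (-0.78) are tight.

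By size of change and number of genes called, the response was narrower in SNU449 than in the other lines. From the 1st to the 99th percentile of genes, changes ran from -0.30 to 0.27 in SNU449, from -0.62 to 0.63 in Hep3B and from -0.46 to 0.43 in PLC. A change of 0.5 or more in either direction was measured for 17 genes in SNU449, 699 in Hep3B and 252 in PLC, of which 13, 686 and 177 passed the test. The test called 3247 genes in Hep3B (16.4%) and 904 in PLC (4.57%). Groups did not overlap for 32.8% of genes in Hep3B, 19.9% in PLC and 22% in SNU449, so that by this measure SNU449 was not below PLC. Replicates differed by a median SD per gene of 0.0726 in SNU449, 0.0701 in Hep3B and 0.0718 in PLC among control arrays. Among knockdown arrays it was 0.0661, 0.0931 and 0.118. The 5′ minus 3′ signal was low on PLC knockdown arrays 1 and 3 (-1.15 and -1.09), and its part in the width of the PLC changes was not tested. ATAD2 also fell by 3.80 in Hep3B, which differed from SNU449 (limma interaction, adjusted p = 0.000975), and by 2.62 in PLC, for which no difference from SNU449 was detected (adjusted p = 0.643).

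**Figure D2:**
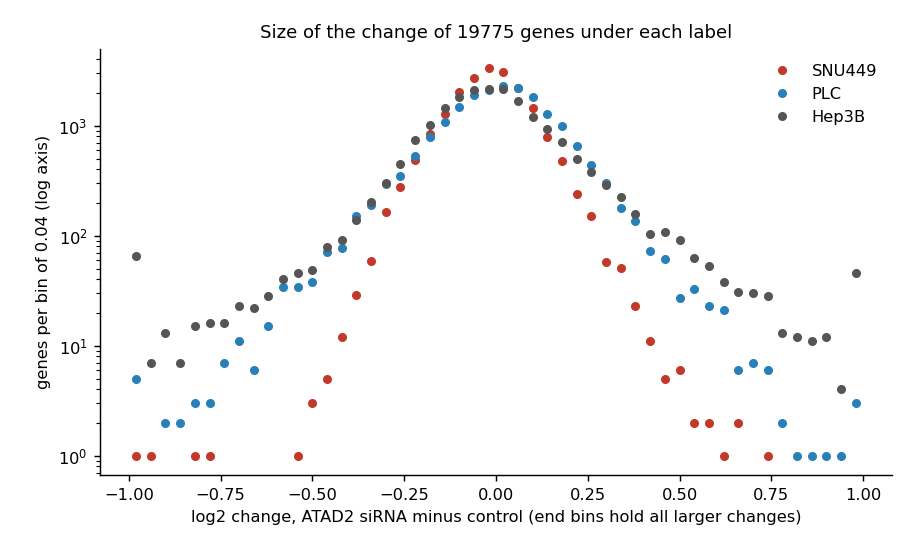
Number of genes (log axis) in each bin of log2 change, ATAD2 siRNA minus control, for SNU449, PLC and Hep3B, with 19775 genes each; the bins at either end hold all larger changes. The points of SNU449 fall off fastest on both sides, as 17 genes changed by 0.5 or more, against 252 in PLC and 699 in Hep3B.

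Among the 29 genes that rose, CFDP1 had the largest change. It encodes a chromatin-associated protein related to a subunit of the yeast SWR1 complex, which places the histone variant H2A.Z. CFDP1 read 8.95, 8.91 and 8.93 on control arrays and 9.69, 9.65 and 9.64 after knockdown, a rise of 0.73 (SE 0.045; limma, adjusted p = 4.93e-07). The arrays of each group lay close together and the groups were far apart. CFDP1 stood at -0.05 in Hep3B and fell by 0.17 in PLC, and its response in SNU449 differed from both (limma interaction, adjusted p = 1.75e-06 and 3.54e-06). Its 2 other probe sets gave 0.15 and -0.16 in SNU449 and did not pass, so that the rise rests on 1 of 3 probe sets.

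The promoters of 46 of the 51 called genes were found among RefSeq promoters (assembly GRCh38.p14), as the 250 bases before and 50 bases after the gene start. Those of 1 gene that rose and 1 that fell are shown because they are the largest changes whose promoter held a searched motif; capitals mark the motif, read 5′ to 3′ on the gene's strand. The promoter of CFDP1 lies at chr16:75433454-75433753 on the minus strand, with a GC box (GGGCGGG) that starts 79 bases before the gene start. That of S100A8 lies at chr1:153391139-153391438 on the minus strand, with a CCAAT box that starts 219 bases before the gene start.
CFDP1: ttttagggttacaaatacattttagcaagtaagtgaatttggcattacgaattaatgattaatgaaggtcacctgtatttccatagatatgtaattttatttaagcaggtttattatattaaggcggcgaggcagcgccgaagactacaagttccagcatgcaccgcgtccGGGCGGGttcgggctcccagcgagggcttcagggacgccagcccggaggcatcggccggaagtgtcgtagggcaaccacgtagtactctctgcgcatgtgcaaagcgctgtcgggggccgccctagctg
S100A8: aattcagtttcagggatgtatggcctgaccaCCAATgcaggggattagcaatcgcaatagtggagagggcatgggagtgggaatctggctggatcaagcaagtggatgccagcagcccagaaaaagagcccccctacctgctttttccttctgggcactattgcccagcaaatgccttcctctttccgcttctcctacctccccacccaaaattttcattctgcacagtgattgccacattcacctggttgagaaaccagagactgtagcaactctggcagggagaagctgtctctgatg

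The same search covered 5 motifs on both strands, in 27 promoters of genes that rose and 19 of genes that fell, beside 15382 promoters of tested genes. An E2F site (TTTCGCGC, TTTGGCGC, TTTCCCGC or TTTGCCGC), the element bound by the factors that ATAD2 is said to assist, was in no promoter of either group and in 4.36% of all tested ones. An E-box of the MYC type (CACGTG) was in 2 promoters of genes that rose, KLF4 and DESI2, and in no promoter of a gene that fell, against 8.90%. TATAAA was in 3 that rose (FABP1, EREG and REV3L) and 3 that fell (CSF3R, HIKESHI and CGA), against 8.76%. The CCAAT box was in 10 and 8, against 36.1%. The GC box GGGCGGG was in 20 promoters of genes that rose (74.1%) and 5 of genes that fell (26.3%), against 44.7%. A match says only that the letters are in the window.

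FABP1 and CROT, both of fatty acid handling, rose after knockdown. FABP1, the liver fatty acid-binding protein, read 7.74, 7.69 and 7.68 on control arrays and 8.36, 8.33 and 8.32 after knockdown, a rise of 0.64 (SE 0.061; limma, adjusted p = 7.16e-05). CROT, a peroxisomal carnitine acyltransferase that passes shortened fatty acids on to mitochondria, read 7.62, 7.88 and 7.66 against 8.43, 8.41 and 8.35, a rise of 0.68 (SE 0.10; limma, adjusted p = 0.0109). Both groups were tight and separate for FABP1, whereas control array 2 was the highest control for CROT. FABP1 did not pass in Hep3B (0.14) or PLC (-0.13) and its response in SNU449 differed from both (limma interaction, adjusted p = 0.00223 and 0.000594), while CROT also rose in Hep3B, by 0.85. Averaged over all probe sets of the gene, the changes were 0.34 for FABP1 (adjusted p = 0.0878) and 0.29 for CROT (0.233), and CROT lost its call without knockdown array 2 (0.0560).

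PAPSS2, CHST9 and GLUD1 rose and CPS1 fell. PAPSS2, which makes the sulfate donor used to conjugate drugs and steroids, read 6.93, 6.85 and 6.81 on control and 7.33, 7.36 and 7.29 on knockdown arrays, a rise of 0.47 (limma, adjusted p = 0.0218). CHST9, a sulfotransferase that acts on sugar chains, read 5.46, 5.22 and 4.89 against 5.63, 5.77 and 5.78, a rise of 0.54 (adjusted p = 0.0334), and its control arrays were more spread than its knockdown arrays. GLUD1, the mitochondrial glutamate dehydrogenase, rose by 0.35. CPS1, the first enzyme of the urea cycle, went the other way, from 8.95, 8.79 and 8.80 on control to 8.37, 8.41 and 8.40 on knockdown arrays, a fall of 0.46 (adjusted p = 0.00384). CPS1 also fell by 0.21 in Hep3B. It stood at 0.01 in PLC, which differed from SNU449 (limma interaction, adjusted p = 0.0384).

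KLF4 and EREG rose in SNU449 as they did in Hep3B. KLF4, a zinc finger transcription factor tied to differentiation and growth arrest, read 6.12, 6.12 and 5.83 on control and 6.50, 6.46 and 6.64 on knockdown arrays, a rise of 0.51 (SE 0.079; limma, adjusted p = 0.0115). EREG, the EGF receptor ligand epiregulin, read 8.20, 7.89 and 7.89 against 8.36, 8.59 and 8.50, a rise of 0.49 (adjusted p = 0.0162). Control array 3 was the lowest for KLF4 and control array 1 the highest for EREG, and the groups did not overlap, as for every called gene. Without knockdown array 3 KLF4 did not pass (adjusted p = 0.0874). Both genes rose more in Hep3B, by 1.12 and 0.95, and the difference passed the test (limma interaction, adjusted p = 0.00289 and 0.0305); in PLC they stood at 0.05 and 0.09.

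IL1RAP, the shared co-receptor of interleukin-1 and related cytokines, read 9.18, 9.08 and 8.94 on control and 9.55, 9.46 and 9.55 on knockdown arrays, a rise of 0.46 (limma, adjusted p = 0.0227). IL6ST, the signal-transducing receptor of the interleukin-6 family, rose by 0.34, and NMI, a protein that binds MYC and STAT factors, by 0.35. The other probe sets of IL6ST ranged from -0.22 to 0.17 and did not pass in a fit of all probe sets. The probe set used for IL6ST also missed the threshold in that fit (limma, adjusted p = 0.0763). GPRC5B, an orphan G protein-coupled receptor, read 5.94, 5.93 and 5.76 against 6.25, 6.27 and 6.39, a rise of 0.43 (adjusted p = 0.0438). It was the gene with opposite calls in both other lines, where it fell by 0.46 in Hep3B and by 0.31 in PLC. Both differences from SNU449 passed (limma interaction, adjusted p = 0.000198 and 0.0216). The rise of GPRC5B in SNU449 was an unstable call: without any one of 14 arrays, the 6 of SNU449 among them, it did not pass. Its other probe sets gave -0.01, 0.09 and 0.15 in SNU449 and did not pass in the fit of all probe sets. The probe set used for GPRC5B missed the threshold there too (limma, adjusted p = 0.0874). CDK18, a kinase of the cyclin-dependent family, read 5.15, 5.05 and 5.08 against 5.46, 5.47 and 5.58, a rise of 0.41 (adjusted p = 0.0266). CPEB2, which binds the 3′ ends of messenger RNAs and regulates their translation, read 5.10, 4.96 and 4.97 against 5.34, 5.63 and 5.56, a rise of 0.50 (adjusted p = 0.0111), with knockdown array 1 the lowest of its group. The other probe sets of CPEB2 gave 0.06 and 0.05 in SNU449 and did not pass. Groups did not overlap for these genes, as for every called gene, and all were chosen by the same contrast.

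PCSK5, TM4SF1, ITPRIPL2 and C19orf12 rose by 0.37 to 0.66. PCSK5, a protease that activates secreted precursors, read 5.39, 5.48 and 5.16 on control and 5.90, 6.11 and 6.01 on knockdown arrays, a rise of 0.66 (SE 0.13; limma, adjusted p = 0.0426). It is among the least stable calls: without any one of 12 arrays, the 6 of SNU449 among them, it did not pass. TM4SF1, a tetraspanin-like surface protein, read 5.06, 5.13 and 5.08 against 5.59, 5.51 and 5.57, a rise of 0.47 (adjusted p = 0.00452), with tight groups. ITPRIPL2 read 7.01, 6.99 and 7.14 against 7.46, 7.43 and 7.46, a rise of 0.40 (adjusted p = 0.00110). C19orf12, a membrane protein found at mitochondria, read 8.37, 8.45 and 8.52 against 8.86, 8.85 and 8.73, a rise of 0.37 (adjusted p = 0.0390). ITPRIPL2 also rose in Hep3B (0.39) and PLC (0.30), and C19orf12 in both as well (0.96 and 0.53).

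The remaining rises were between 0.28 and 0.36. Matrix and cytoskeletal members were LAMC1, the laminin gamma 1 chain (0.34), PALLD, the actin-bound protein palladin (0.31), and TIMP1, an inhibitor of matrix metalloproteinases (0.28). The other probe set of LAMC1 gave 0.01 and did not pass. REV3L, the catalytic subunit of the DNA polymerase zeta that copies past damage, rose by 0.34, and ZBTB18, a zinc finger repressor, by 0.35. ENTPD5, a nucleotide hydrolase of the endoplasmic reticulum, rose by 0.35. SMIM15, PCMTD1 and ZNRF2 each rose by 0.36, DENND5B by 0.34 and DESI2 by 0.29.

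Among the genes that fell, S100A8, a calcium-binding protein that pairs with S100A9 to form calprotectin, had the largest change after ATAD2. It read 6.71, 6.90 and 7.19 on control arrays and 6.09, 5.73 and 6.22 on knockdown arrays, a fall of 0.92 (SE 0.15; limma, adjusted p = 0.0115). The lowest control array and the highest knockdown array were 0.50 apart, about as far as the arrays within a group. Without control array 2 or 3 or knockdown array 2 the adjusted p was 0.0828, 0.0638 and 0.0688. S100A9 read 7.33, 7.30 and 7.32 against 7.04, 6.86 and 7.02, a change of -0.34 that did not pass (adjusted p = 0.0675). S100A8 stood at -0.18 in Hep3B and -0.23 in PLC, and its response differed from that of Hep3B (limma interaction, adjusted p = 0.0426) and not detectably from that of PLC (0.142).

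TUBA1A and MRPS33 kept their calls under all 33 settings tried, beside ATAD2. TUBA1A, an alpha-tubulin, read 7.85, 7.90 and 7.83 on control and 7.09, 7.01 and 7.03 on knockdown arrays, a fall of 0.82 (SE 0.059; limma, adjusted p = 1.66e-06). MRPS33, a protein of the small mitochondrial ribosomal subunit, read 10.03, 10.12 and 10.06 against 9.33, 9.26 and 9.30, a fall of 0.78 (SE 0.075; adjusted p = 7.16e-05). Groups were tight and far apart for both. TUBA1A stood at -0.13 in Hep3B and -0.06 in PLC and differed from both (limma interaction, adjusted p = 8.08e-05 and 0.000594). MRPS33 also fell by 2.22 in Hep3B, which differed (limma interaction, adjusted p = 4.96e-07), and fell by 0.75 in PLC. Alpha-tubulin genes are near-identical in sequence, so that the signal assigned to TUBA1A is uncertain; its paralog TUBA1B stood at 0.02.

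Genes for 5 secreted proteins were among the falls, while others such as EREG and TIMP1 rose. CGA, the alpha chain shared by the glycoprotein hormones, read 9.39, 9.41 and 9.32 on control and 8.84, 8.81 and 8.88 on knockdown arrays, a fall of 0.54 (SE 0.085; limma, adjusted p = 0.0124). PTGDS, a prostaglandin D2 synthase, read 10.30, 10.35 and 10.35 against 9.91, 9.72 and 9.89, a fall of 0.49 (adjusted p = 0.0159). RNASE1, a secreted ribonuclease, read 6.44, 6.59 and 6.66 against 5.93, 6.09 and 6.13, a fall of 0.51 (adjusted p = 0.0142). The gap between groups exceeded the spread within them for all 3 genes, none of which passed in Hep3B or PLC. CGA and RNASE1 differed in response from PLC (limma interaction, adjusted p = 0.0291 for each), where they stood at 0.17 and 0.19. EDN1, the vasoconstrictor endothelin-1, read 6.06, 5.83 and 5.66 against 5.47, 5.32 and 5.26, a fall of 0.50 (adjusted p = 0.0247), and fell in Hep3B by 0.83 and in PLC by 0.33. IGFBP3, which binds insulin-like growth factors in the circulation, fell by 0.36 in SNU449, 0.64 in Hep3B and 0.67 in PLC.

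Further falls were those of TXNDC16 and HIKESHI. TXNDC16, a thioredoxin-domain protein of the endoplasmic reticulum, read 8.11, 8.07 and 8.12 on control and 7.62, 7.64 and 7.69 on knockdown arrays, a fall of 0.45 (limma, adjusted p = 0.0319). HIKESHI, which carries heat shock protein 70 into the nucleus, read 9.60, 9.66 and 9.60 against 9.27, 9.19 and 9.20, a fall of 0.40 (adjusted p = 0.0124). Both responded far more in Hep3B, where TXNDC16 fell by 2.20 and HIKESHI fell by 1.71 (limma interaction, adjusted p = 2.78e-07 and 3.15e-07). In PLC TXNDC16 fell by 1.22, more than in SNU449 (0.0175), and HIKESHI fell by 0.38.

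ATP2B4, a calcium pump of the plasma membrane, read 6.34, 6.22 and 6.18 on control and 5.86, 5.86 and 5.63 on knockdown arrays, a fall of 0.46 (limma, adjusted p = 0.0266). DYNC2H1, the motor chain of the dynein that works in cilia, read 4.53, 4.76 and 4.71 against 4.28, 4.28 and 4.08, a fall of 0.45 (adjusted p = 0.0172). Its other probe sets, which were dimmer, gave 0.07 each and did not pass. ITGA10, a collagen-binding integrin chain, read 5.42, 5.41 and 5.44 against 5.01, 5.00 and 5.08, a fall of 0.40 (adjusted p = 0.0115). The controls were tightest for ITGA10. ZIC2, a developmental zinc finger factor, read 3.46, 3.58 and 3.89 against 3.21, 3.23 and 3.19, a fall of 0.43 (adjusted p = 0.0370). Its control signal lay at the 11.8th percentile of genes, so low that the size of its change is uncertain. Without any one of 11 arrays ZIC2 did not pass. The other falls were MYEF2 and AFF2 (0.38 each), CSF3R, the receptor of granulocyte colony-stimulating factor (0.37), MID2, a ubiquitin ligase of microtubules (0.34), GLIS2, a zinc finger factor (0.28), and DTX4, a ubiquitin ligase (0.27). The other probe set of MID2 gave -0.04 and did not pass.

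Of the 51 genes, 11 had 1 probe set and 40 had several. Other probe sets were judged in a separate fit of all 41097 probe sets with 1 gene. Only 36 probe sets passed there, and some that gave a call above did not, such as that of CHST9 (limma, adjusted p = 0.0639). In that fit another probe set of the same gene passed for 3 of them, ATAD2, CHST9 and PTGDS, and none passed in the opposite direction. Of the 84 other probe sets, 71 had the same sign and 36 showed no overlap of groups in the same direction, beside 22% of genes with no overlap in either direction. In the same direction 28 of the 84, from 18 genes, had an unadjusted p under 0.05 (limma), beside 10.3% of genes in either direction.

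Many of the called genes also changed in Hep3B. Of the 51, 29 passed in the same direction there (18 higher, 11 lower), against 8.68% of all genes called higher and 7.74% called lower in Hep3B. In PLC 14 passed in the same direction (7 higher, 7 lower), against 2.34% and 2.24%. The counts of genes lower in each line include ATAD2, the target of the siRNA. The lines share no arrays, but share each gene's estimate of spread, so that a gene with a low spread can pass in several lines. The genes higher in all 3 lines were ITPRIPL2, C19orf12, SMIM15, REV3L, DENND5B, LAMC1 and DESI2. Of these, SMIM15, C19orf12, DESI2 and REV3L were unstable calls in SNU449, lost without any one of 14, 13, 13 and 12 arrays. The genes lower in all 3 were ATAD2, MRPS33, EDN1, TXNDC16, ZIC2, HIKESHI and IGFBP3. Opposite calls were made for GPRC5B in both other lines and for CFDP1 in PLC.

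The remaining 20 called genes passed in neither other line: PCSK5, FABP1, CHST9, CDK18, PCMTD1, ZNRF2, GLUD1, NMI and PALLD rose, and DTX4, MID2, CSF3R, AFF2, ITGA10, DYNC2H1, PTGDS, RNASE1, CGA, TUBA1A and S100A8 fell. Missing the threshold elsewhere does not show a difference, so the difference of the responses was tested. It passed for 4 of the 20 against both other lines, namely FABP1, GLUD1, CGA and TUBA1A. Over the 51 called genes the response differed from Hep3B for 25, ATAD2 among them, against 6.14% of all genes. It differed from PLC for 12, against 0.202%. The called genes were chosen on the same SNU449 arrays, and these counts are a description. The smallest p against Hep3B were those of TXNDC16, HIKESHI and MRPS33, which fell more there, and against PLC those of CFDP1, FABP1 and TUBA1A.

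**Figure D3:**
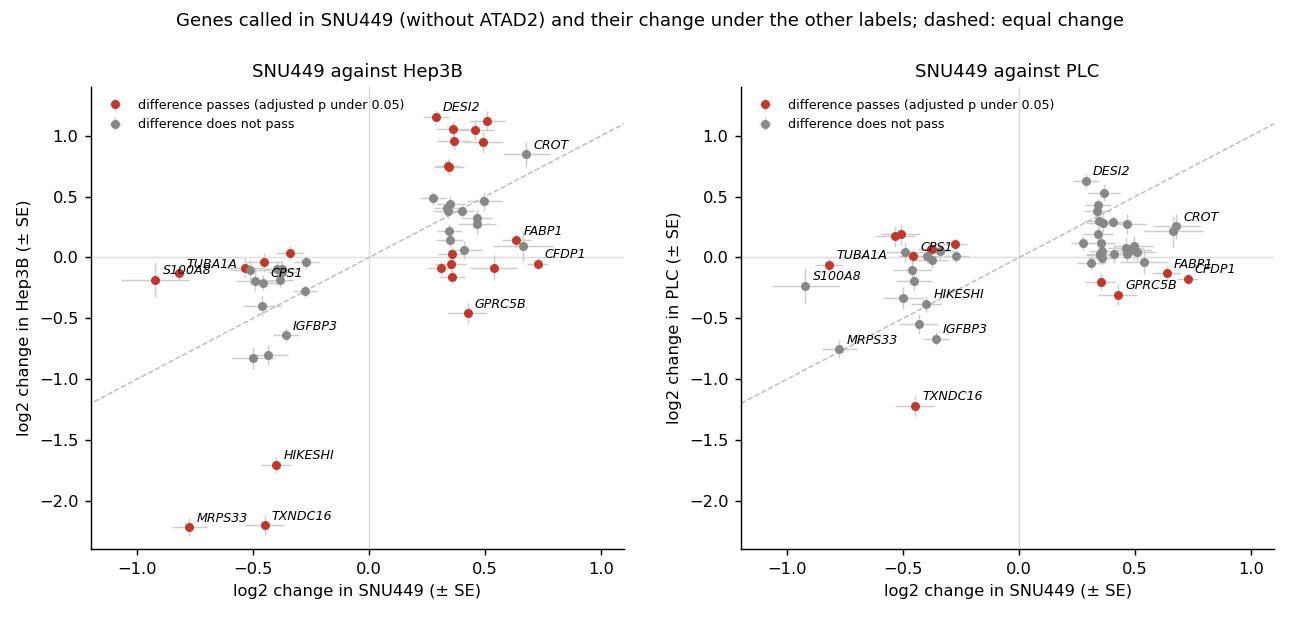
Log2 change of the 50 called genes beside ATAD2 in SNU449 (horizontal axes) against their change in Hep3B (left) and PLC (right), with standard errors as bars; the dashed line marks equal change and red points a difference that passed the interaction test. MRPS33, TXNDC16 and HIKESHI lie at -2.22, -2.20 and -1.71 in Hep3B, and CFDP1, FABP1 and TUBA1A at -0.17, -0.13 and -0.06 in PLC.

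Over all genes, the response of SNU449 differed from that of Hep3B for 1214 genes, 580 more positive (2.93%) and 634 more negative (3.21%) in SNU449. Among them, picked after their values were seen, SLC39A10, a zinc importer, stood at -0.25 in SNU449 and fell by 2.04 in Hep3B (limma interaction, adjusted p = 1.63e-08). CCND1, the cyclin D1 of G1 phase, stood at 0.07 and fell by 0.92 in Hep3B (4.78e-06). KRT7, a keratin of bile duct epithelium, stood at 0.43 in SNU449 (limma, adjusted p = 0.0636) and fell by 1.08 in Hep3B (interaction, 2.14e-06). Against PLC 40 genes differed, 21 more positive (0.106%) and 19 more negative (0.0961%). That count rested on single arrays: it was 1482 without PLC knockdown array 2, 83 without PLC knockdown array 3 and 80 without Hep3B knockdown array 2. It was 10 to 16 without any one SNU449 control array, 6 to 14 without any one SNU449 knockdown array, and 24 and 23 without Hep3B control arrays 1 and 3. The 5′ minus 3′ signal was low on PLC knockdown arrays 1 and 3, at -1.15 and -1.09; with it as a covariate, an alternative added after seeing the data, 58 genes differed from PLC.

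The genes that responded most in Hep3B moved little in SNU449. Of 40 genes beside ATAD2 that rose by 1 or more in Hep3B, 31 were above 0 in SNU449 (43.2% of all genes were). Of the 31, 10 had an unadjusted p under 0.05 (limma; 3.76% of all genes did), and 4 were called higher (0.147% of all genes were). The median of the 40 was 1.15 in Hep3B and 0.13 in SNU449, and the response differed for 36 (6.14% of all genes did). Of 56 genes that fell by 1 or more, 43 were below 0 in SNU449 (56.8% of all genes were), 12 at an unadjusted p under 0.05 (6.56%). Of the 56, 3 were called lower (0.111% of all genes were). The median was -1.21 against -0.08, and 54 differed (6.14% of all genes did). In PLC, 77 genes rose by 0.5 or more, with a median of 0.59 there and 0.02 in SNU449, and 99 fell, with medians of -0.58 and -0.02. The response differed from PLC for 9 and 11 of them (0.202% of all genes did). These genes were chosen on the arrays of Hep3B or PLC, so that their values there are larger in part by selection.

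Genes best known as ATAD2 targets were read against the 0.258% of all genes called in SNU449, a share at which a list of this size need hold no call. Of 53 DNA replication and G1/S genes none passed in either direction. Their median was -0.02, as was that over all genes, 38 stood below 0 (56.8% of all genes did), and 12 had lower groups that did not overlap (13.2% of all genes did). The list's medians, relative to the control mean, were -0.052, -0.030 and -0.0074 on the knockdown arrays and -0.0041, 0.012 and 0.0054 on the control arrays, so that these groups did not overlap. Neither did the medians over all genes, at -0.011, -0.019 and -0.015 on knockdown and 0.0019, -0.0029 and 0.0019 on control arrays. The separation is thus not particular to this list. GINS2, a subunit of the replicative helicase, had the smallest p, at -0.20 (limma, adjusted p = 0.228). In Hep3B 34 of the 53 fell (7.74% of all genes did), and for 15 the response differed between the lines (6.14% of all genes did). They included UHRF1, which maintains DNA methylation (-0.07 against -0.79), UNG, a uracil repair enzyme (-0.01 against -0.58), and CCNE1, cyclin E1 (0.00 against -0.45). Of 56 G2/M and mitosis genes none passed and the median was -0.01. The mitotic kinesin KIF18A had the smallest p, at 0.19 (adjusted p = 0.498), and differed from Hep3B, where it fell by 0.47 (limma interaction, adjusted p = 0.00561). Among 23 genes linked to ATAD2 in growth none passed, with a median of 0.01 and IRS2, an adaptor of the insulin receptor, first at -0.12 (adjusted p = 0.451); in Hep3B 9 of them fell and 1 rose (7.74% and 8.68% of all genes did).

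Other growth and chromatin lists held 1 call, ATAD2. Of 14 bromodomain genes no other member was called, and its paralog ATAD2B stood at 0.19 (limma, adjusted p = 0.305). Of 24 CDK inhibitor and p53 genes none passed. CDKN1A, the inhibitor p21, read 7.65, 7.75 and 7.69 on control and 7.39, 7.47 and 7.41 on knockdown arrays, a change of -0.28 that missed the threshold (adjusted p = 0.0755) although its groups did not overlap. None of 25 MYC and ribosome biogenesis genes passed, with RRP9, which binds the U3 RNA, first at 0.22 (adjusted p = 0.323).

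The hepatocyte genes gave scattered calls. None of 51 plasma protein genes passed, with a median of 0.01 and KNG1, kininogen, first at -0.24 (limma, adjusted p = 0.133), whereas 19 of them fell in PLC (2.24% of all genes did). Among them ALB, ORM1 and RBP4 stood at -0.01, 0.07 and 0.01 in SNU449 and at -1.02, -0.82 and -0.67 in PLC, and each differed between the lines (limma interaction, adjusted p = 0.0471, 0.000214 and 0.000594). None of 23 liver transcription factors passed, with CEBPD first at 0.29 (adjusted p = 0.130). One or more members were called among 26 urea cycle and amino acid genes (GLUD1 higher, CPS1 lower), 38 xenobiotic genes (PAPSS2), 34 peroxisomal genes (CROT) and 44 fatty acid genes (FABP1, median 0.02). Of 19 sterol synthesis genes none passed. MVK, mevalonate kinase, was first at -0.17 (adjusted p = 0.318), and its sign turned with the mean of its probe sets (0.055).

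KLF4 and EREG were the calls of the stress and signalling lists described next. Of 28 NRF2 targets, genes of the antioxidant response, none passed, with a median of 0.06, 20 above 0 (43.2% of all genes were) and 10 with higher groups that did not overlap (8.76% of all genes). The medians of the list on the 3 knockdown arrays were 0.06, 0.05 and 0.06 above the control mean. GCLM and GCLC, the subunits of the enzyme that starts glutathione synthesis, stood at 0.24 (limma, adjusted p = 0.155) and 0.18 (0.228). None of 33 immediate early genes passed, with ETV5 first at -0.25 (adjusted p = 0.173), whereas 11 fell in Hep3B (7.74% of all genes did), and the response of EGR1 differed (-0.02 against -1.48; limma interaction, adjusted p = 0.0453). KLF4 was the call among 15 Krüppel-like factors and EREG among 16 EGF family genes.

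None passed among 38 unfolded protein and amino acid stress genes, with VLDLR, a lipoprotein receptor, first at 0.28 (limma, adjusted p = 0.0755). None passed among 32 hypoxia genes, where the glucose transporter SLC2A1 was first at -0.30 (0.129). The first of 32 NF-kB genes was CXCL1, a neutrophil chemokine, at -0.17 (0.498). That of 38 interferon genes was IFIT2, an antiviral RNA-binding protein, at -0.26 (0.290). In Hep3B 17 of the 38 stress genes rose (8.68% of all genes did) and 11 of the hypoxia genes fell (7.74% of all genes did).

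Of 19 S100 genes S100A8 was called, 16 stood below 0 (56.8% of all genes did), and 6 had lower groups that did not overlap (13.2% of all genes). S100A4 stood at -0.36 (limma, adjusted p = 0.198). TUBA1A was the call among 17 tubulins and MRPS33 among 28 mitochondrial ribosomal proteins. Of 32 respiratory chain genes none passed, and 10 had lower groups that did not overlap (13.2% of all genes). SDHD, a subunit of complex II, was first at -0.10 (limma, adjusted p = 0.502). ATG16L1, of the autophagosome machinery, stood at 0.40 (0.0973), first of 31 autophagy genes. None of 32 apoptosis genes (BMF, -0.23, 0.198) or 29 Wnt genes (AXIN1, -0.22, 0.242) passed. TIMP1 was the call among 31 TGF-beta and matrix genes, and TM4SF1, higher, and EDN1, lower, were those among 27 YAP targets. In all, 14 of 876 listed genes were called, ATAD2 among them, beside 0.258% of all genes. The lists were written with earlier results of these data known, so that nothing is read from this share. Without SNU449 control array 2 or 3 or knockdown array 2 or 3, 8, 9, 7 and 8 listed genes passed.

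**Figure D4:**
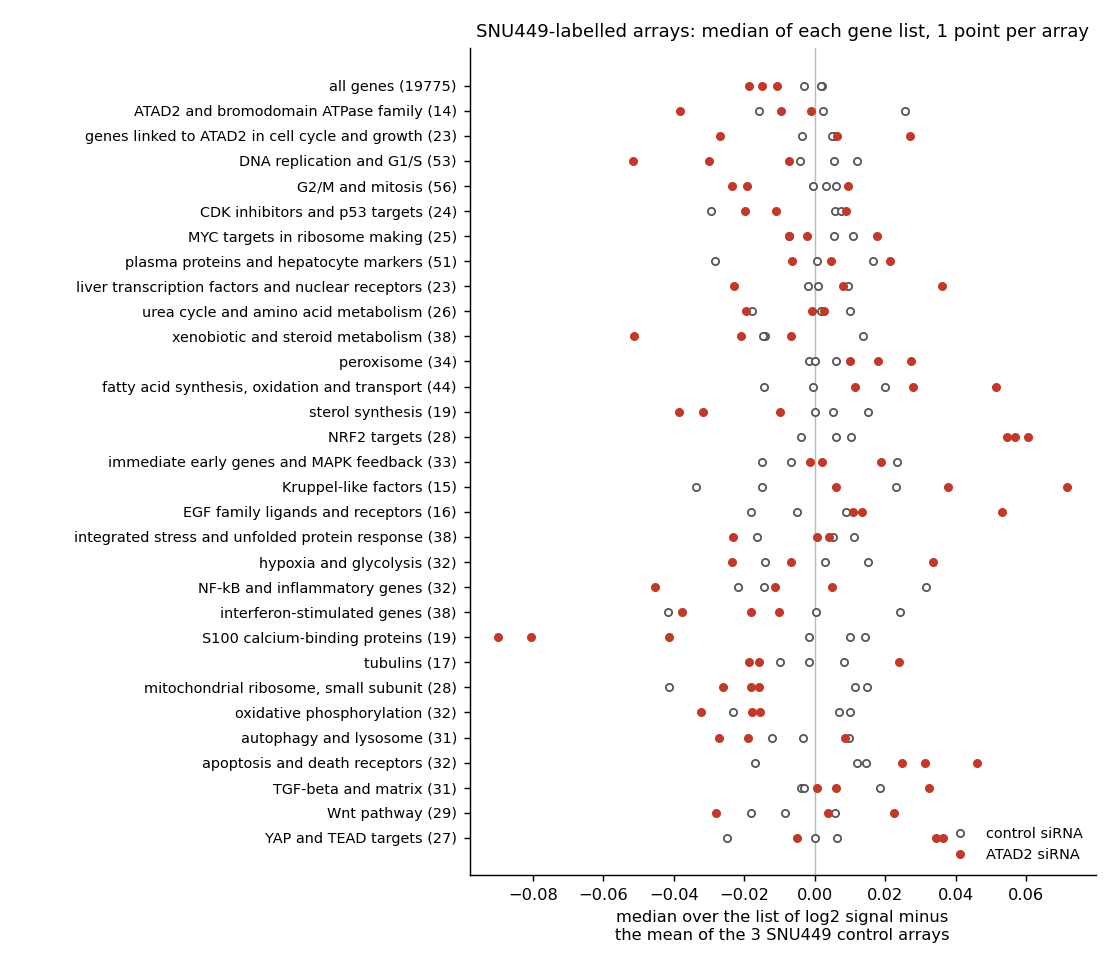
Median over each gene list of the log2 signal minus the mean of the 3 SNU449 control arrays, with 1 point per array (open, control; filled, ATAD2 siRNA) and the number of measured genes in brackets. All points lie within a narrow range around 0. The ATAD2 siRNA points of the NRF2 targets (0.06, 0.05 and 0.06) and of the S100 list lie apart from their controls. So do those of all genes and of other lists, such as DNA replication, sterol synthesis, peroxisome and apoptosis.

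**Figure D5:**
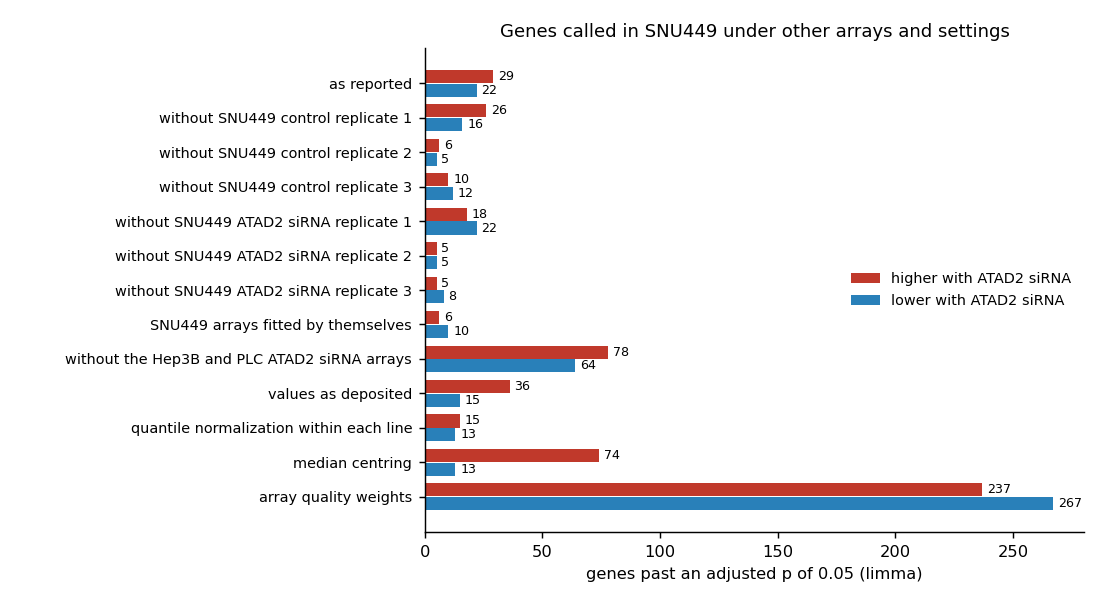
Number of genes past an adjusted p of 0.05 in SNU449, higher (red) and lower (blue) with ATAD2 siRNA, as reported and under other arrays and settings. Among the settings drawn, the bars run from 5 and 5 without knockdown array 2 to 237 and 267 with array quality weights, beside 29 and 22 as reported.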

How the data were processed

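Biotin-labelled total RNA was hybridised, per the labels. The deposited table holds 54675 probe sets by 18 arrays of log2 values, as judged from their range of 1.33 to 14.0; how they were normalized or centred is not given in the sources used here. The submitters' processing notes name limma, without a version. For SNU449 the median deposited value was 5.61, 5.61 and 5.62 with control siRNA, against 5.58, 5.59 and 5.55 with ATAD2 siRNA. Sorted columns differed by at most 0.155 within a line and up to 1.51 between lines, so the columns were quantile normalized over all arrays.

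The platform annotation gave gene names: 41097 probe sets had 1 gene, 1801 several and 11777 none, and 41043 of the first kind were updated from a RefSeq table of GRCh38.p14. Of several probe sets for a gene the brightest on average over all arrays was kept, which gave 19775 genes. Group means were estimated for all 6 groups together by limma 3.58.1 (lmFit, eBayes; R 4.3.3), with residual degrees of freedom of 12 and prior ones of 4.01. P-values were two-sided and adjusted by the Benjamini-Hochberg method over all genes, with a threshold of 0.05; a called gene is one that passed it. An interaction is the change in SNU449 minus that in another line. With 3 arrays against 3, a permutation test of 1 gene cannot go below p = 0.1, so none is given. The number of arrays limits the precision. The script was tested on simulated data.

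Named genes are ATAD2, the 15 largest rises and 15 largest falls among called genes without overlap of groups, the other called genes with their change, the 3 smallest interaction p-values against each line, and called members or the smallest p of each list. Replication genes compared with Hep3B, plasma proteins compared with PLC, EGR1, GCLC, S100A4, S100A9, TUBA1B, SLC39A10, CCND1 and KRT7 were added after their values were seen. The groups and the 30 gene lists were chosen with earlier results of these data known. Alternatives covered scaling, filters on dim genes, choice of probe set, samples in the fit, variance model, replicate block, thresholds and each array left out; 2 were added after seeing the data.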

Additional observations from a re-analysis of the deposited data

Results flagged for a closer look

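The response to ATAD2 siRNA differed between SNU449 and another line for called genes by a test of the difference itself (limma interaction, adjusted p over all genes), in a set chosen on the same SNU449 arrays. Against Hep3B, genes that rose in SNU449 and rose more in Hep3B were KLF4 (adjusted p = 0.00289), EREG (0.0305), IL1RAP (0.00494), C19orf12 (0.00164), SMIM15 (0.000459), REV3L (0.0167), DENND5B (0.00367) and DESI2 (4.12e-06). Those that rose in SNU449 without a like rise in Hep3B were CFDP1 (1.75e-06), FABP1 (0.00223), CHST9 (0.0147), GPRC5B (0.000198), PCMTD1 (0.000744), ZNRF2 (0.0222), GLUD1 (0.0169) and PALLD (0.00843). HIKESHI (3.15e-07), TXNDC16 (2.78e-07), MRPS33 (4.96e-07) and ATAD2 (0.000975) fell less in SNU449 than in Hep3B, and MID2 (0.0128), DYNC2H1 (0.0337), CGA (0.0354), TUBA1A (8.08e-05) and S100A8 (0.0426) fell more.

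Against PLC, the response differed for CFDP1 (limma interaction, adjusted p = 3.54e-06), FABP1 (0.000594), GPRC5B (0.0216) and GLUD1 (0.0301), which rose in SNU449. It also differed for GLIS2 (0.0428), CSF3R (0.0492), MYEF2 (0.0301), CPS1 (0.0384), RNASE1 (0.0291), CGA (0.0291) and TUBA1A (0.000594), which fell in SNU449, and for TXNDC16 (0.0175), which fell more in PLC.

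A probe set annotated with both HSPA1A and HSPA1B, the inducible heat shock proteins 70, lay outside the gene tests because it names 2 genes. In a fit of all probe sets its mean was 4.85 on control and 5.59 on knockdown arrays of SNU449, a rise of 0.74 (SE 0.089; limma, adjusted p = 0.00192).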

How the results depend on the processing

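ATAD2 fell in every setting run, with changes of -2.45 to -2.06. No called gene reversed its direction in any setting run. The 51 calls became 28 with quantile normalization within each line, 87 with median centring, 145 and 202 without the dimmest 30% and 50% of genes, 29 with the mean of all probe sets and 16 with SNU449 fitted alone. They became 124 with an intensity trend and robust prior, 504 with array weights, 9 and 131 at thresholds of 0.01 and 0.10, and 13 with an absolute change of at least 0.5. With the 2 alternatives chosen after seeing the data, leaving out the Hep3B and PLC knockdown arrays gave 142 (49 of the 51 among them) and a 5′ minus 3′ covariate gave 80. Leaving out 1 array gave 10 to 86. Only TUBA1A and MRPS33 beside ATAD2 passed in all 33 settings, and 7 genes beside ATAD2 passed without each array in turn. MVK, not called, turned to 0.055 with the mean of all probe sets.

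The 1214 differences from Hep3B became 2121 with array weights and 563 at 0.01, and 829 to 1547 without 1 array. The 40 from PLC became 216 as deposited, 87 within lines, 484 with median centring, 101 and 213 without dim genes, 156 with trend, 638 with weights, 5 at 0.01 and 210 at 0.10, and 6 to 1482 without 1 array. Called list members, 14 as reported, became 7 with the mean of probe sets, 8 with SNU449 alone, 37 with weights, 6 at 0.01, and 7 to 16 without 1 array. With the replicate number as a block the counts were 8 calls, 743 and 3 differences, and 5 list members. Deviations from the group mean, over all genes, correlated at 0.04, -0.12 and 0.05 between same-numbered SNU449 control and knockdown arrays. Between differently numbered arrays they correlated at -0.12 to 0.09. Deviations within a group of 3 arrays sum to 0, so these values cannot decide whether the numbers pair the arrays. The cause of these shifts was not tested, beyond fewer genes or arrays entering some fits.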
